A study of Homo sapiens with 6 samples.

Results

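The double-stranded RNA (dsRNA) sensors DDX58, IFIH1, DHX58, TLR3, MAVS, EIF2AK2 and ADAR were followed in BT-549 cells after NEAT1 silencing. These 7 genes were taken by symbol from a table of 25545 genes, each symbol was found once, and none was chosen by its level. The set was, however, chosen with earlier results of these data known. BT-549, a cell line from a triple-negative breast cancer (TNBC), was transfected for 48 h with a control siRNA (BT-549/CsiRNA, 3 libraries) or with an siRNA against the NEAT1 long noncoding RNA (BT-549/NEAT1siRNA, 3 libraries). Both groups therefore received a synthetic siRNA duplex with a lipid reagent, a single siRNA was used against NEAT1, and untransfected cells were not analysed here. The sample titles carry the prefix tet- for both groups, while the treatment notes give siRNA transfection. The replicates are labelled as triplicate cultures of this cell line, so the p-values measure the spread between such cultures.

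Long dsRNA is rare in healthy cytoplasm and is read as a sign of viral infection or of escaped self RNA. RIG-I (DDX58), MDA5 (IFIH1) and LGP2 (DHX58) are cytosolic helicases that bind dsRNA. RIG-I and MDA5 pass the signal through their caspase recruitment domains to the mitochondrial adaptor MAVS, whereas LGP2 has no such domain and tunes the other helicases. TLR3 detects dsRNA in endosomes, PKR (EIF2AK2) is a kinase that halts translation when it binds dsRNA, and ADAR edits adenosine to inosine in dsRNA, which keeps self RNA from being sensed. Most of these genes are themselves induced by interferon through the interferon-stimulated response element (ISRE).

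Promoter sequence was looked up because the sensors moved unequally. RefSeq promoter windows of 300 bases (250 before and 50 from the transcription start, GRCh38.p14) matched 6 of the 7 genes at 8 start sites. DHX58 had no entry. The ISRE was searched as GAAA, any 2 bases and GAAA again, on both strands, and 3.57% of 35116 promoter windows held it. Of the 6 genes, 3 held it (IFIH1, TLR3 and EIF2AK2), and the window of DDX58, that of MAVS and the 3 windows of ADAR did not. The gamma-activated site, searched as TTCNNNGAA on both strands, was in 7.66% of all windows and, among the sensors, in that of TLR3 at 2 places. The stretches below run from 60 bases before to 10 bases into the transcript, 5′ to 3′ on the gene's strand, with ISRE letters in capitals. They show where the letters lie in the 3 genes that hold them, with DDX58 and the most upstream start of ADAR for comparison.
IFIH1 (chr2:162318675-162318744, minus strand): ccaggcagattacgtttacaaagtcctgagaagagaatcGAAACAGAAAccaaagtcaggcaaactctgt
IFIH1, further upstream (chr2:162318821-162318850, minus strand): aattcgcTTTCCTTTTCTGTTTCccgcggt
TLR3 (chr4:186069096-186069165, plus strand): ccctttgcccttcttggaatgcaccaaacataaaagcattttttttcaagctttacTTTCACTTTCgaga
EIF2AK2 (chr2:37156971-37157040, minus strand): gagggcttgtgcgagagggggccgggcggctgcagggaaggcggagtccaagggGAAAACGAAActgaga
DDX58 (chr9:32526187-32526256, minus strand): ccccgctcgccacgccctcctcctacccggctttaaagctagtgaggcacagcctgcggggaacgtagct
ADAR (chr1:154627988-154628057, minus strand): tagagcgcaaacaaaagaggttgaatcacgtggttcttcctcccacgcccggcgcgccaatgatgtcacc

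In TLR3 and EIF2AK2 the matched letters lie across the start site, and in IFIH1 a match ends 12 bases before it. The window of IFIH1 also holds a pair of overlapping matches further upstream. A match describes these letters and is no evidence that a factor binds, and the lack of a match covers only this window and this spelling.

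**Figure D1:**
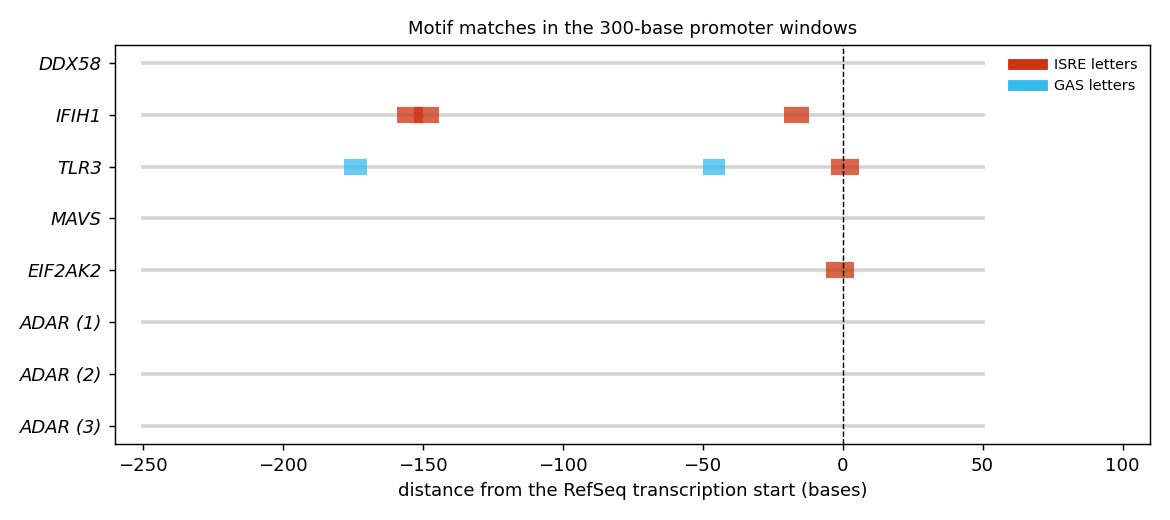
Positions of ISRE letters (red) and gamma-activated site letters (blue) in the 300-base RefSeq promoter windows, by distance from the transcription start in bases. Each line is a start site, and the 3 start sites of ADAR have a line each. The 3 genes with red marks are IFIH1, TLR3 and EIF2AK2.

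Expression was read as TPM, which the authors scaled by transcript length and to a sum of 1000000 per library. Reads were recovered by joining the TPM with the authors' mean normalized counts, and they summed to between 15786625 and 20343083 per library. A set of 4 short noncoding RNAs (RN7SK, RN7SL1, RN7SL2 and RPPH1) held 64.4% to 68.1% of the TPM of a library, so the TPM of every other gene also moves with their amount. In NEAT1siRNA replicates 1 and 2, expression relative to the group mean followed transcript GC content in opposite directions, with a Spearman rho across 10439 genes of 0.68 and -0.73. In CsiRNA replicates 1, 2 and 3 rho was -0.21, -0.34 and 0.47, and in NEAT1siRNA replicate 3 it was 0.14. Deviations from a mean of 3 libraries are tied to each other, so opposite signs within a group follow in part from this measure. By it, NEAT1siRNA replicates 1 and 2 had the strongest trends, so results below are also given without them or with the trend removed. The silencing was seen in each library: NEAT1 had 13.4, 7.68 and 10.8 TPM with CsiRNA and 4.36, 2.96 and 2.73 TPM with NEAT1siRNA. The cells had the markers of a mesenchymal TNBC line, with VIM at 1046 ± 78.9 TPM (SD, n = 3) in CsiRNA cells. Of 5 mesenchymal markers, CDH2 and FN1 were lower in NEAT1siRNA cells (-0.34 and -0.47 in log2 units), while VIM (-0.15), ZEB1 (-0.023) and SPARC (0.082, with all 3 NEAT1siRNA values above the CsiRNA range) did not pass the test. The 5 epithelial markers summed to between 1.24 and 1.83 TPM with CsiRNA and between 1.84 and 2.47 TPM with NEAT1siRNA, mostly KRT18, and their part in the results below was not tested. ESR1 was at 0 and PGR reached at most 0.00676 TPM. ERBB2 (HER2) had 6.19 ± 0.212 TPM with CsiRNA and 5.98 ± 0.328 TPM with NEAT1siRNA (SD, n = 3). The 3 endothelial markers summed to at most 0.0125 TPM, and PTPRC, the pan-leukocyte marker, reached at most 0.0580 TPM. Of the 6 leukocyte markers 2 were at 0 in every library, and their sum of 23.4 to 29.4 TPM came almost wholly from CD68, a lysosomal protein. In these bulk libraries a change in the share of cells that express a gene and a change in its level per cell cannot be told apart.

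Groups were compared with limma on log2(TPM + 1) over 10721 genes whose TPM averaged 1 or more, and a gene was called at a Benjamini-Hochberg adjusted p under 0.05. Unless voom is named, log2 values below are differences of log2(TPM + 1), a scale that understates the change of genes at a few TPM or less. DHX58 did not pass the filter, so 6 of the 7 sensors were tested. IFIH1 and TLR3 were higher and ADAR was lower in NEAT1siRNA cells, while DDX58, MAVS and EIF2AK2 did not pass the threshold. For comparison, 4.99% of all tested genes were called higher and 8.98% lower (535 and 963 genes). The split was 1082 and 1109 with quantile normalization and 1158 and 954 with centring on the median, and the 3 sensor calls held under both. The same calls were made without NEAT1siRNA replicate 1 and without NEAT1siRNA replicate 2. The 3 NEAT1siRNA values lay above the CsiRNA range for 2 of the 6 tested sensors, as for 11% of all tested genes, and below it for 1 of them, as for 19.3% of all tested genes. The median log2 fold change of the 6 sensors was 0.084, against -0.044 for all tested genes.

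**Figure D2:**
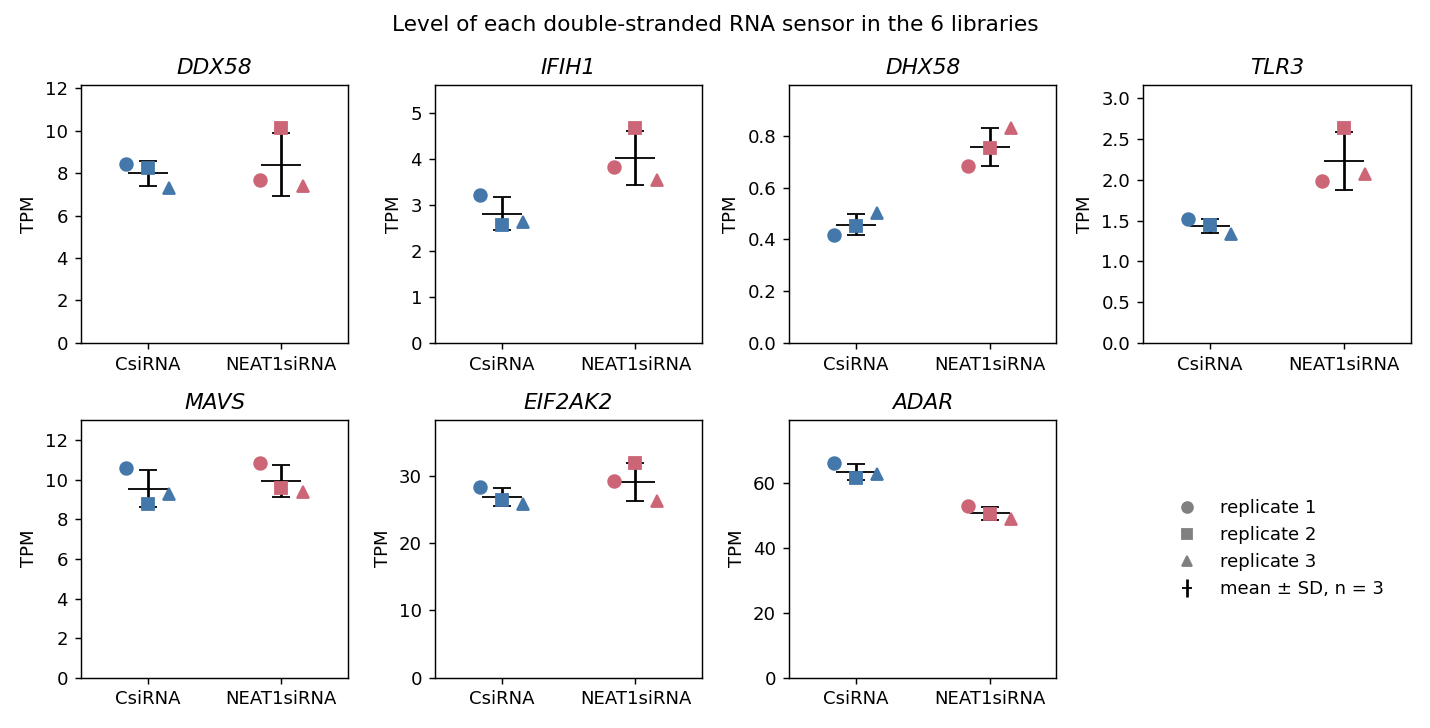
TPM of each dsRNA sensor in the 3 CsiRNA (blue) and 3 NEAT1siRNA (red) libraries, with the mean and SD (n = 3) in black and a marker shape per replicate number. The groups do not overlap for IFIH1, DHX58, TLR3 and ADAR. They overlap for DDX58, MAVS and EIF2AK2.

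By level per transcript length in CsiRNA cells, ADAR stood first at 63.5 TPM, ahead of EIF2AK2 at 26.9, MAVS at 9.54, DDX58 at 7.99, IFIH1 at 2.80, TLR3 at 1.43 and DHX58 at 0.457 TPM. No neighbours in this order had overlapping ranges in CsiRNA cells. The editing enzyme and the translation kinase were thus measured at higher levels than the receptors that signal to interferon genes. The order was the same in NEAT1siRNA cells, but there the ranges of MAVS (9.36 to 10.9 TPM) and DDX58 (7.39 to 10.1 TPM) overlapped.

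DDX58 encodes RIG-I, which binds short dsRNA with triphosphate ends, and is a minus-strand gene of chromosome 9 (GRCh38, 32455302 to 32526208, listed in GENCODE as RIGI). In order of replicate number, its TPM was 8.44, 8.23 and 7.31 with CsiRNA, and 7.70, 10.1 and 7.39 with NEAT1siRNA. Only NEAT1siRNA replicate 2 lay above the CsiRNA range. In limma the log2 fold change came to 0.057 ± 0.11 (SE) with an adjusted p of 0.784, and to -0.071 without NEAT1siRNA replicate 2. DDX58 was read by a mean of 852 recovered reads per library. GENCODE lists a further protein-coding gene on the same strand that shares 4471 of the 10345 exon bases of DDX58, and how the authors' counting treated such reads is not given in the sources used here.

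IFIH1 encodes MDA5, which coats long dsRNA, and is a minus-strand gene of chromosome 2 from 162267074 to 162318684. Its values were 3.22, 2.56 and 2.63 TPM with CsiRNA and 3.82, 4.67 and 3.54 TPM with NEAT1siRNA. All 3 NEAT1siRNA libraries were above the highest CsiRNA library. The mean rose from 2.80 ± 0.363 to 4.01 ± 0.584 TPM (SD, n = 3 each), 143% of the control level. On log2(TPM + 1) limma gave 0.40 ± 0.10 (SE) with an adjusted p of 0.0116, and voom on recovered reads gave a log2 fold change of 0.57 with an adjusted p of 0.00096. The call rested on 185 to 232 recovered reads per CsiRNA library and 255 to 379 per NEAT1siRNA library. With no filter on TPM the adjusted p from limma was 0.138.

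DHX58 encodes LGP2, the helicase without caspase recruitment domains, and is a minus-strand gene of chromosome 17 from 42101404 to 42112714. It was the lowest of the sensors, with 0.418, 0.452 and 0.501 TPM in CsiRNA libraries and 0.685, 0.753 and 0.831 TPM in NEAT1siRNA libraries. The groups did not overlap, and the silenced cells averaged 165% of the control level. Behind these values were 21, 23 and 31 recovered reads with CsiRNA and 37, 43 and 42 with NEAT1siRNA. In limma with no filter on TPM, where 1.31% of 18531 genes were called higher, it rose by 0.27 ± 0.047 (SE) in log2 units, with an adjusted p of 0.0405. Its call there was lost without each of the 6 libraries in turn (adjusted p from limma between 0.0929 and 0.150), with fold changes from 0.24 to 0.30. Those 6 fits called 0 to 45 of 18531 genes higher, against 242 with all libraries. With voom on genes with a mean of at least 20 recovered reads, a fit chosen after seeing the data in which 11.4% of genes were called higher, DHX58 rose by 0.75 ± 0.21 (SE) in log2 units, with an adjusted p of 0.0186. With TPM rescaled without the 4 short noncoding RNAs, which brought DHX58 past the filter, it rose by 0.48 (adjusted p of 0.037 in limma).

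MAVS encodes the mitochondrial adaptor of RIG-I and MDA5, and is a plus-strand gene of chromosome 20 from 3846799 to 3876123. It had 10.6, 8.76 and 9.29 TPM with CsiRNA and 10.9, 9.59 and 9.36 TPM with NEAT1siRNA, so the groups overlapped. In limma the difference was 0.054 ± 0.097 (SE) in log2 units, with an adjusted p of 0.773. TLR3, the endosomal receptor, is a plus-strand gene of chromosome 4 from 186068911 to 186088073. It had 1.52, 1.45 and 1.34 TPM with CsiRNA and 1.99, 2.64 and 2.07 TPM with NEAT1siRNA. Each NEAT1siRNA library exceeded each CsiRNA library, and replicate 2 was the highest. The mean rose from 1.43 ± 0.0896 to 2.23 ± 0.353 TPM (SD, n = 3 each), 156% of the control level. On log2(TPM + 1) limma gave 0.40 ± 0.10 (SE) with an adjusted p of 0.00789, and voom on recovered reads gave a log2 fold change of 0.68 with an adjusted p of 0.00174. The recovered reads of TLR3 were 87 to 98 per CsiRNA library and 124 to 178 per NEAT1siRNA library, and with no filter on TPM the adjusted p from limma was 0.0848.

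EIF2AK2 encodes PKR, which phosphorylates the translation factor eIF2 on binding dsRNA, and is a minus-strand gene of chromosome 2 from 37099210 to 37157522. It had 28.4, 26.4 and 25.8 TPM with CsiRNA and 29.2, 32.0 and 26.3 TPM with NEAT1siRNA. NEAT1siRNA replicate 3 lay within the CsiRNA range. In limma the difference was 0.11 ± 0.094 (SE) in log2 units, with an adjusted p of 0.483. PKR transcripts gave 2320 to 3181 recovered reads in each library. On the opposite strand, ARL14EPP1 shares 401 of the 11036 exon bases of EIF2AK2.

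ADAR encodes the editing enzyme ADAR1, a brake on MDA5 and PKR, and is a minus-strand gene of chromosome 1 from 154581695 to 154628013. It had 66.2, 61.5 and 62.7 TPM with CsiRNA and 52.8, 50.4 and 48.8 TPM with NEAT1siRNA. All 3 NEAT1siRNA values lay below all CsiRNA values, with a tight spread in each group. The mean fell from 63.5 ± 2.48 to 50.7 ± 2.02 TPM (SD, n = 3 each), which left 79.8% of the control level, at -0.32 ± 0.087 (SE) in log2 units and an adjusted p of 0.0150 in limma. ADAR was the best covered of the sensors, with a mean of 9029 recovered reads per library. The table lists ADAR once, so the interferon-inducible long isoform and the constitutive short isoform were not separated, and editing itself was not measured. The call was lost without CsiRNA replicate 1 (adjusted p = 0.0935 from limma) and without NEAT1siRNA replicate 3 (adjusted p = 0.0842 from limma), with fold changes of -0.29 in both.

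**Figure D3:**
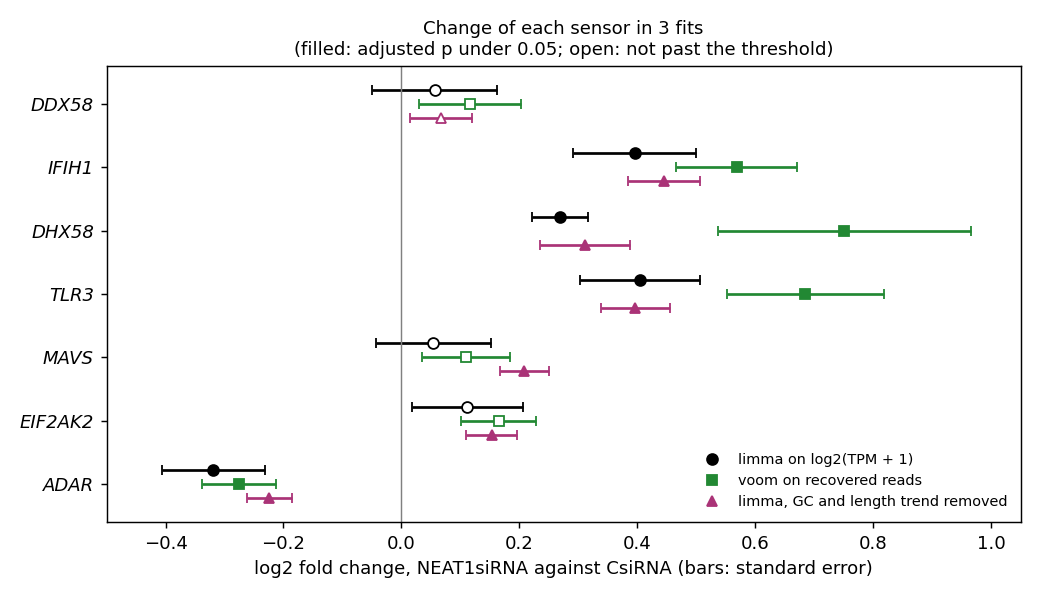
Log2 fold change of each sensor, NEAT1siRNA against CsiRNA, with its standard error. Black circles are limma on log2(TPM + 1), with DHX58 from the fit with no filter. Green squares are voom on genes with a mean of at least 20 recovered reads. Purple triangles are limma with the trend on GC content and length removed, with DHX58 from that fit on genes with at least 20 recovered reads. The fits on genes with at least 20 recovered reads were chosen after seeing the data. Filled markers passed an adjusted p under 0.05. All sensors but ADAR lie to the right of 0 in all 3 fits, and ADAR lies to the left. The markers of IFIH1, DHX58, TLR3 and ADAR are filled in all 3 fits.

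Transcript GC content differed between the sensors and moved with their spread. The transcripts of TLR3 (37.6% GC), EIF2AK2 (38.5%), DDX58 (39.9%) and IFIH1 (43.2%) lie under the median of 47.3% over tested genes, and these 4 genes had their highest value in NEAT1siRNA replicate 2, the library in which GC-poor transcripts were high. ADAR, at a GC content above that of 58.1% of tested genes, MAVS (52.1% GC) and DHX58 (58.5% GC) lie above the median. Each library was then corrected for a trend on GC and length, fitted to its differences from the mean of all 6 libraries. Differences between the groups linked to GC content or length were therefore removed as well. After it, TLR3 stood 0.39, 0.39 and 0.42 above the CsiRNA mean (log2) in NEAT1siRNA replicates 1, 2 and 3. The values as deposited were 0.30, 0.58 and 0.34. Replicate 2 was still the highest after this correction for IFIH1 (0.43, 0.51 and 0.39) and DDX58 (0.040, 0.16 and 0.00034). For EIF2AK2 (0.21, 0.13 and 0.11) replicate 1 was then the highest. In that fit, where 16.3% of all tested genes were called higher and 16.9% lower, 4 sensors were called higher and 1 lower. IFIH1 had a log2 fold change of 0.45 (adjusted p = 0.000628 from limma) and TLR3 of 0.40 (adjusted p = 0.000911 from limma). MAVS (0.21, adjusted p = 0.00443 from limma) and EIF2AK2 (0.15, adjusted p = 0.0213 from limma) passed the threshold only there and in the related fits with this trend removed. ADAR remained lower, by -0.22 on the log2 scale (adjusted p = 0.00214 from limma), and DDX58 was at 0.068 (adjusted p = 0.353 from limma).

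**Figure D4:**
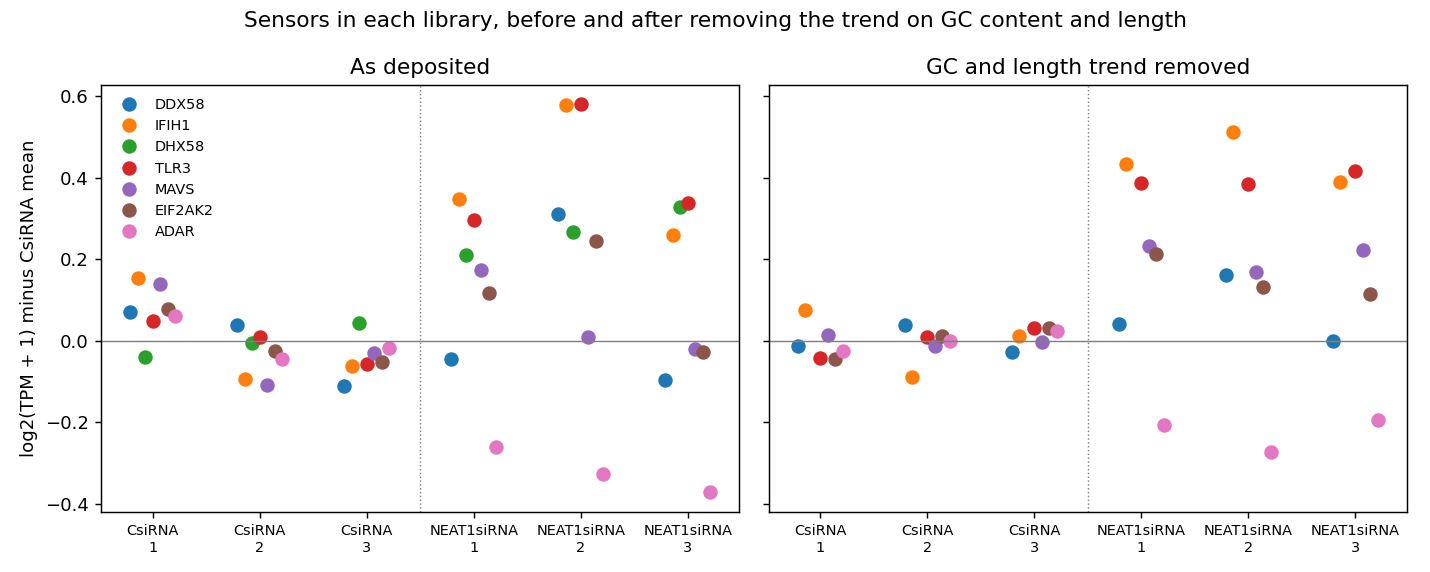
Log2(TPM + 1) of each sensor minus its CsiRNA mean in the 6 libraries, as deposited (left) and with the trend on GC content and length removed (right; DHX58 has no value there). As deposited, NEAT1siRNA replicate 2 reaches 0.58 for TLR3 and IFIH1. With the trend removed, TLR3 lies between 0.39 and 0.42 in all 3 NEAT1siRNA libraries and ADAR between -0.27 and -0.19. IFIH1 and DDX58 keep their highest value in NEAT1siRNA replicate 2.

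Ratios within a library do not depend on how libraries are scaled, and 4 of them were compared, chosen after seeing the data. IFIH1 relative to DDX58 was 0.382, 0.311 and 0.360 with CsiRNA and 0.496, 0.460 and 0.479 with NEAT1siRNA. The MDA5 transcript thus gained on the RIG-I transcript in each NEAT1siRNA library. DHX58 relative to DDX58 went from 0.0577 ± 0.00973 to 0.0919 ± 0.0192 (SD, n = 3 each). ADAR relative to EIF2AK2 went from 2.36 ± 0.0526 to 1.75 ± 0.150, and ADAR relative to MAVS from 6.68 ± 0.383 to 5.11 ± 0.216 (SD, n = 3 each). The groups did not overlap in any of the 4 ratios, and each had p = 0.1 in a two-sided exact permutation test, the smallest p that 3 libraries against 3 allow (0.1 after adjustment over the 4 ratios). Each ratio set a sensor whose groups did not overlap over a sensor whose groups did. The lack of overlap in the ratios therefore followed in part from this choice. The trend on GC content was not removed from them.

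The genes nearest to each called sensor were found by the root mean square difference of log2(TPM + 1), relative to the CsiRNA mean, over the 6 libraries. For TLR3 they were IFIT5, an interferon-induced RNA binding protein, at 0.0140, FAM49B at 0.0269 and NIPSNAP3A at 0.0286. For IFIH1 they were LZTFL1 (0.0285), the long noncoding RNA NORAD (0.0400) and the interferon-induced SAMD9 (0.0417). ADAR lay nearest to ZDHHC5 (0.00889), POLG (0.0168) and CCDC15 (0.0177).

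Genes around the sensors were followed in 8 lists, which were also chosen with earlier results of these data known. For comparison with their counts, 4.99% of all tested genes were called higher and 8.98% lower in limma. At an unadjusted p under 0.05, 9.22% were higher and 18.2% lower, and with voom on recovered reads 11% were higher and 11.9% lower. The shares called higher and lower in limma were 5.04% and 8.69% without NEAT1siRNA replicate 1. Without NEAT1siRNA replicate 2 they were 4.6% and 14.8%. Below MAVS and TLR3, 18 of 22 signalling genes were tested and 2 were lower (median -0.12 in log2 units). Of these, NFKB1, an NF-κB subunit, fell from 11.1 ± 1.34 to 8.10 ± 0.501 TPM (adjusted p = 0.00564 from limma) and TRAF2, a ubiquitin ligase, from 6.32 ± 0.354 to 5.04 ± 0.350 TPM (adjusted p = 0.0487 from limma, SD, n = 3 each). In limma 0 genes of this list were higher, 0 at an unadjusted p under 0.05 and 0 with voom, while 1 was higher without NEAT1siRNA replicate 1. The kinase TBK1 had 24.5 ± 1.17 TPM with CsiRNA and 21.9 ± 3.31 TPM with NEAT1siRNA (SD, n = 3), and the factor IRF3 had 19.6 ± 1.97 and 20.8 ± 0.970 TPM (SD, n = 3), neither past the threshold.

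Among regulators of the RIG-I-like receptors, 23 of 25 were tested, 1 was higher and 2 were lower (median 0.015). SMURF2, a ubiquitin ligase, fell from 35.7 ± 2.44 to 22.9 ± 2.63 TPM (adjusted p = 8.26e-05 from limma, SD, n = 3 each). USP15, a deubiquitinase, fell from 6.33 ± 0.652 to 4.90 ± 0.607 TPM, and DDX60, a helicase induced by interferon, rose from 3.57 ± 0.337 to 4.72 ± 0.858 TPM (SD, n = 3 each). The call of DDX60 was lost without NEAT1siRNA replicate 2, where 0 genes of this list were higher. TRIM25, a ubiquitin ligase that acts on RIG-I, had 15.7 ± 0.873 TPM with CsiRNA and 14.2 ± 1.34 TPM with NEAT1siRNA (SD, n = 3), not past the threshold.

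Of 29 other dsRNA binding proteins and effectors, 23 were tested, 2 were higher and 3 lower (median -0.031). The higher genes were OAS1, from 3.04 ± 0.0795 to 5.43 ± 0.325 TPM, and OAS2, from 4.89 ± 0.0488 to 7.46 ± 0.655 TPM (SD, n = 3 each), synthases that make oligoadenylates on binding dsRNA. OAS1 had a log2 fold change of 0.67 (adjusted p = 2.24e-05 from limma), larger than that of each tested sensor on this scale. The lower genes were DGCR8, DHX33 and DICER1, of which DGCR8 and DICER1 process microRNA precursors, with log2 fold changes of -0.42, -0.41 and -0.34. Without NEAT1siRNA replicate 2, 6 genes of this list were lower. ZBP1 and the other editing family members ADARB1, ADARB2, ADAD1 and ADAD2 had a mean under 1 TPM over the 6 libraries. The PKR branch had 16 genes, all tested, of which 0 were higher and 1 was lower (median -0.19): EIF2B4, a subunit of the eIF2 exchange factor, went from 10.9 ± 0.902 to 8.46 ± 0.689 TPM (SD, n = 3 each). At an unadjusted p under 0.05, 1 of these genes was higher and 7 were lower, and with voom 0 were higher and 3 lower. The lower genes numbered 3 without NEAT1siRNA replicate 1 and 6 without NEAT1siRNA replicate 2. ATF4, the transcription factor whose protein is made when eIF2 is phosphorylated, had 84.6 ± 1.58 and 87.9 ± 1.61 TPM (SD, n = 3), and was not past the threshold.

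For TLR3 trafficking and processing, 9 of 11 genes were tested, 2 were higher and 2 lower. UNC93B1, the chaperone that carries TLR3 to endosomes, rose from 4.85 ± 0.496 to 7.01 ± 0.932 TPM (adjusted p = 0.00395 from limma, SD, n = 3 each). SCARA3, a scavenger receptor family member, rose from 16.3 ± 0.424 to 22.8 ± 0.795 TPM, while the endosomal proteases CTSB and LGMN fell, with a log2 fold change of -0.30 each. The median over the 9 genes was -0.052, and 1 gene was lower without NEAT1siRNA replicate 1.

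In a list of 16 interferons and cytokines, 4 were tested (CCL5, IL6, IL12A and IL15), 0 were higher and 2 were lower in limma. At an unadjusted p under 0.05, and with voom, 1 was higher and 2 were lower. IL6 fell from 8.05 ± 0.684 to 5.98 ± 0.291 TPM and IL12A from 2.33 ± 0.768 to 1.13 ± 0.0616 TPM (SD, n = 3 each). The median of the 4 genes was -0.18. CCL5 had 9.54 ± 0.554 and 9.67 ± 1.13 TPM (SD, n = 3), not past the threshold. IFNB1 averaged 0.5 recovered reads per library, CXCL10 averaged 4.17, and 5 of the 16 genes were at 0 TPM in every library, so a change in these genes was not detectable at this depth. The interferon IFNE, named here after its values were seen, had 0.586, 0.540 and 0.380 TPM with CsiRNA and 0.218, 0.310 and 0.233 TPM with NEAT1siRNA. The groups did not overlap, on a mean of 10.3 recovered reads, and its adjusted p was 0.0800 in limma with no filter on TPM. A link between IFNE and the sensors was not tested.

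Other interferon-stimulated genes formed a list of 50, of which 43 were tested, 16 were higher and 0 lower in limma (0 lower at an unadjusted p under 0.05 and 0 with voom), with a median of 0.18. On log2(TPM + 1), the called genes with the largest differences were IFI44L (from 1.33 ± 0.104 to 2.55 ± 0.305 TPM), PARP9 (to 10.6 ± 0.596 TPM, 151% of the control level), MX1, an antiviral GTPase (from 13.1 ± 0.350 to 19.0 ± 2.05 TPM), and SAMD9L (from 1.88 ± 0.0544 to 3.08 ± 0.591 TPM, SD, n = 3 each). By percent of the control level the order differs, and TRIM22 (260%), PARP10 (172%) and CMPK2 (170%), named after their values were seen, stood above PARP9 but had a mean under 1 TPM and were not tested. The count of higher genes was 15 without NEAT1siRNA replicate 1, 12 without NEAT1siRNA replicate 2 and 26 with the GC and length trend removed. Among 15 other nucleic acid sensors, 8 were tested, and 0 were called in either direction by limma (median -0.046). At an unadjusted p under 0.05, 1 was higher and 1 lower, and with voom 1 was higher, while 1 was lower without NEAT1siRNA replicate 2. The DNA sensors CGAS and IFI16 had 22.6 ± 2.51 and 28.7 ± 1.18 TPM with CsiRNA and 19.0 ± 2.21 and 31.7 ± 3.02 TPM with NEAT1siRNA (SD, n = 3).

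**Figure D5:**
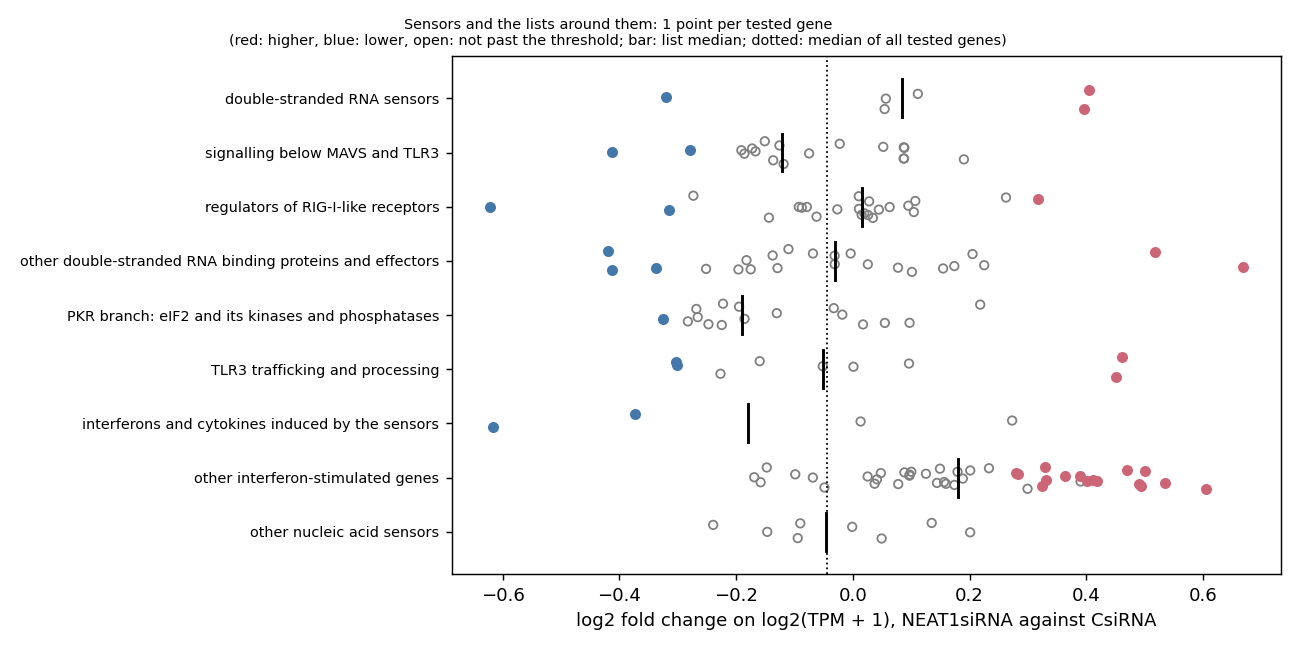
Log2 fold change on log2(TPM + 1), NEAT1siRNA against CsiRNA, of each tested gene in the sensor set and the 8 lists around it. Red points passed the threshold as higher, blue as lower, open points did not pass, bars mark list medians and the dotted line marks the median of all tested genes (-0.044). The 16 red points of the interferon-stimulated genes have no blue counterpart, while the sensors hold 2 red points and 1 blue point.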

How the data were processed

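The authors prepared stranded mRNA libraries from BT-549 cells, aligned reads to GRCh38 with STAR and compared groups with DESeq2, per the labels. They deposited TPM per gene and library, and a comparison table from which only the mean normalized count was used here (a signal, which the authors averaged over all libraries and scaled by size factors). Its fold changes, errors, statistics and p-values are the authors' own comparison and were not used. The tool that computed TPM is not given in the sources used here.

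Since the files hold TPM, groups were compared on log2(TPM + 1) with lmFit and eBayes (trend) of limma 3.58.1 in R 4.3.3, for genes whose TPM averaged 1 or more, with Benjamini-Hochberg adjustment over all of them. Other computations used Python 3.11.15 with matplotlib 3.10.9, scipy 1.17.1, pandas 2.3.3 and numpy 2.4.6. Reads were recovered by joining both tables. Where the mean normalized count was under 5, 99.8% of nonzero values came within 0.05 of a whole number, and 15.4% for genes at 500 or more, where reads are approximate. Recovered reads of replicates differed by more than sampling noise, with a chi-square of 4.58 to 14.3 for each degree of freedom. GC content and length came from GENCODE transcripts by symbol for 97.4% of tested genes. The trend was fitted per library, on differences from the mean of all libraries, with splines of 4 degrees of freedom. The fit was tested on simulated data. These held no trend on GC content or length, so that test does not cover the trends of the libraries used here.

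The members and lists were chosen with earlier results of these data known. Named are all sensors, NEAT1, up to 4 called genes per list by size of change, the 3 nearest genes of each called sensor, and a few genes not past the threshold. The alternatives varied the pseudocount, the filter, the scaling, the variance trend, the replicate block, the trend on GC content and length, voom, and each library left out. The ratios, the fits on genes with at least 20 recovered reads and the unfiltered fits of DHX58 with the block or without a library were chosen after seeing the data. Some genes of the lists are not reported by name here.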

Additional observations from a re-analysis of the deposited data

How the results depend on the processing

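Over the alternatives, IFIH1 and TLR3 stayed higher and ADAR lower in direction. The call was lost with no filter on TPM for IFIH1 and TLR3, and without CsiRNA replicate 1 or NEAT1siRNA replicate 3 for ADAR. The number of sensors called higher, 2 as reported, was 1 with no filter on TPM (DHX58), 0 with a mean TPM of at least 5 (IFIH1 and TLR3 then being untested), 4 with the trend on GC content and length removed, 4 with that and the replicate block, and 5 with that trend removed in genes with at least 20 recovered reads. It was 3, with DHX58 added, with TPM rescaled without the 4 short noncoding RNAs and with voom in genes with at least 20 recovered reads. Leaving out each library gave 2 sensors higher in every case and 0 or 1 lower. The fold change of DDX58 ran from -0.071 to 0.13 over these fits and was -0.071 without NEAT1siRNA replicate 2. That of MAVS ran from -0.0056 to 0.12 and was -0.0056 without NEAT1siRNA replicate 1.

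Over all genes, 535 were higher and 963 lower. Higher and lower genes numbered 242 and 263 with no filter, 1082 and 1109 with quantile normalization, 1158 and 954 with median centring, 940 and 1119 with TPM rescaled without the 4 short noncoding RNAs, 1183 and 1279 with voom, 1702 and 1765 with the trend removed, 1681 and 1704 with the block as well, and, in genes with at least 20 recovered reads, 1750 and 1898 with the trend removed and 1369 and 1358 with voom. Leaving out each library gave 376 to 540 higher and 383 to 1590 lower genes (383 without CsiRNA replicate 1, 425 without NEAT1siRNA replicate 3 and 1590 without NEAT1siRNA replicate 2). The cause of these shifts was not tested.

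Deviations of same-numbered libraries from their group means had r = -0.030, 0.25 and -0.11 across genes. For differently numbered libraries r ran from -0.40 to 0.40. Deviations from a mean of 3 libraries are tied to each other, so these values cannot settle whether the numbers pair the samples. With the replicate block, 579 genes were higher and 1061 lower, with the same 3 sensor calls. In the unfiltered fit with the block, limma called 2 genes higher and 5 lower, and the adjusted p of DHX58 was 0.0822.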
